A study of Mus musculus with 2 samples.

Results

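Windows of 1 Mb densely covered by dimethylated lysine 79 of histone H3 (H3K79me2) were picked out of a chromatin immunoprecipitation and sequencing map of fibroblasts cultured from mouse embryos (MEFs). Chromosomes 1 to 19 were cut into fixed windows from position 0, and reads of replicate 2 were counted in bins of 1 kb, keeping 1 read per position and strand. A bin was called at 12 or more reads, and a window was eligible when at least 700 of its bins held reads. Dense windows were chosen by replicate 2 alone, as the eligible windows in which 20% or more of the bins with reads were called. This gave 566 dense windows out of 1691 eligible windows (33.5%) and 2411 windows with reads in either library. The series holds 1 group of 2 libraries from the same cell type, both from cells grown in DMEM with 10% FBS and precipitated with an antibody against H3K79me2 after sonication to a mean of 500 bp. Per the labels, gel pieces of 150 to 350 bp were taken for replicate 1 and of 150 to 300 bp for replicate 2, and both libraries went through 18 cycles of LM-PCR. Flow cell, date and gel range differ together between the libraries and cannot be told apart. The labels used here give no strain, genotype, passage or embryo age, and name no separate cultures, so a difference between the libraries may be technical. Input DNA and other conditions were not analysed here.

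H3K79me2 is placed by DOT1L, a methyltransferase that acts on the globular core of histone H3 and not on its tail. The mark lies over transcribed genes and is usually strongest in the first part of the gene body, downstream of the start site, fading toward the end of the gene. Genes are spread unevenly along mouse chromosomes, with crowded stretches next to gene deserts. Gene coordinates of build mm8, on which the reads were placed, were not used here, so windows and domains are given by position, with no gene, exon or sequence assigned.

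The libraries differed in depth and in reads per bin. Replicate 1 held 16472599 distinct autosomal reads with a median of 7 per bin with reads, and replicate 2 held 12862946 with a median of 4. A bin of replicate 1 was called at 20 or more reads. Called bins made up 2.99% of the bins with reads of eligible windows in replicate 1 and 16.8% in replicate 2. These shares rest on unlike counts, and with calls at 12 reads the share in replicate 1 was 17.4%. The level of a window is its mean number of reads per bin with reads, divided by the library median just given. Because replicate 2 chose the dense windows, its values are a description of the choice, and only replicate 1 was independent of it. With 1 library in that role, no test between groups of windows could be made.

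In replicate 2, the dense windows had called shares from 20% to 62.8%, with a median of 28.1%, against a median of 14.2% over all eligible windows. Most stood near the lower limit: 330 had a share below 30% and 73 had a share of 40% or more. The level of replicate 2 was 2.73 at the median and ran from 1.89 to 6.59. Just inside the limit were the windows on chromosome 4 from 151000001 to 152000000 and chromosome 6 from 125000001 to 126000000, both at 20%, and chromosome 2 from 20000001 to 21000000 at 20.05%. Their shares in replicate 1 were 1.95%, 3.83% and 5.65%. Just outside were chromosome 2 from 52000001 to 53000000 at 19.98%, chromosome 5 from 144000001 to 145000000 at 19.93% and chromosome 16 from 20000001 to 21000000 at 19.93%. Replicate 1 called 4.55%, 1.77% and 3.22% of their bins, so the windows on either side of the limit overlapped in that library.

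The minimum of 700 bins with reads, which was also set on replicate 2, removed 720 windows (29.9%), most of which held few reads in that library alone. In replicate 1, 597 of the 720 had 700 or more bins with reads, and those 597 had a median called share of 0.111%. Among the 720 removed windows, 29 had a share of 20% or more in replicate 2. Those 29 held reads in 24 to 699 bins and had a median share of 3.82% in replicate 1.

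Replicate 1, which the choice did not use, was also denser in calls in these windows. Pooled over the 566 windows, it called 5.53% of the bins with reads (exact 95% binomial interval 5.47 to 5.59, 30158 of 545661 bins). In the 1125 other eligible windows it called 1.68% (1.66 to 1.71), which is lower by a factor of 3.29. The contrast depended on the count at which a bin was called. With calls at 12 reads, replicate 1 called 22.5% of bins in dense windows and 17.4% over all eligible windows, and the ratio of these was 1.29, against 1.85 with calls at 20 reads. Such intervals cover counting error only, since the reads carry no molecular identifiers and neighbouring bins share domains. The median share of a dense window in replicate 1 was 4.91%, with a range from 0.101% to 29.2%, against a median of 1.16% in the other windows and 2.16% over all eligible windows. The ranges overlapped, since the other windows ran from 0% to 11.7%. On each of the 19 chromosomes the median of the dense windows was above that of the other windows, by factors from 3.05 to 8.61.

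Counts of windows in replicate 1 can be read against all eligible windows. A share of 1% or more was found in 550 dense windows (97.2%), against 68.7% of all eligible windows. A share of 5% or more was found in 278 (49.1%), against 338 of 1691 (20%), and a share of 10% or more in 51 (9.01%), against 3.08%. The share lay above the median of all eligible windows in 495 dense windows (87.5%), against 50.0%. When the 566 windows with the highest share in replicate 1 were listed, 413 were dense windows, which is 73.0% of each list, against 33.5% of all eligible windows. All but 2 of the 73 windows with a share of 40% or more in replicate 2 were in that list. Of the 153 dense windows that were not, 123 had a share below 30%.

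**Figure D1:**
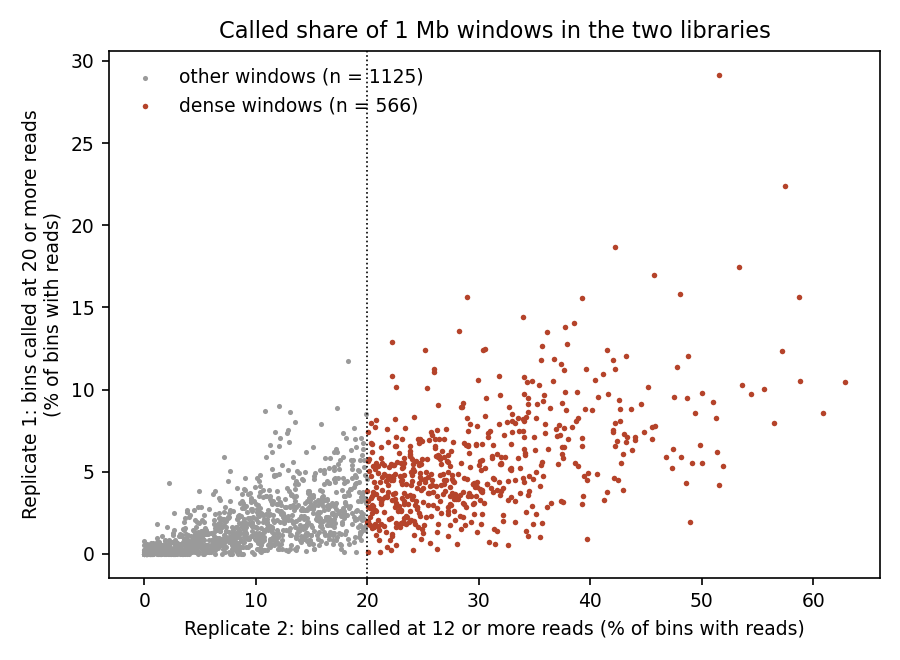
Each point is 1 eligible window of 1 Mb, with the percent of its bins called in replicate 2 on the horizontal axis and in replicate 1 on the vertical axis. The 566 dense windows (red) lie to the right of the dotted line at 20%, and their values in replicate 1 run from 0.101% to 29.2%, overlapping the 1125 other windows (grey).

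Spearman's rho between the shares of the libraries was 0.805 over 1691 eligible windows, 0.475 over the 566 dense windows and 0.730 over the 1125 others. Values within the latter groups are restricted by the limit at 20% in replicate 2 and cannot be compared with the value over all windows. Neighbouring windows share domains and placeable sequence enters both libraries, so these values describe the windows only. The median share in replicate 1 was 3.75% for the 194 dense windows below 25% in replicate 2. It was 4.35% for 136 windows from 25% to 30%, 5.94% for 163 windows from 30% to 40%, and 8.08% for 73 windows of 40% or more. The median rose from class to class while the spread stayed wide, with 10th and 90th percentiles of 1.65% and 6.65% in the first class and 4.69% and 12.4% in the last.

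The level of replicate 1 was raised far less than its share of called bins. At the median it was 1.27 in the dense windows, with a range from 0.839 to 2.78, against 1.10 in the other windows and 1.154 over all eligible windows. Means were then taken over bins with reads of replicate 1. Bins called in replicate 2 held more reads of replicate 1 than bins not called there in every one of the 566 dense windows. The ratio was 1.82 at the median and ran from 1.05 to 5.96. The same held in 989 of 996 other windows with at least 10 called bins, at a median ratio of 1.70.

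The 10 windows with the highest share in replicate 2 lay on chromosomes 2, 5, 7, 8, 10, 12 and 15, and in replicate 1 they ranked between 2 and 110 of the 1691. The densest was chromosome 10 from 80000001 to 81000000, where replicate 2 called 622 of 990 bins with reads (62.8%) and replicate 1 called 104 of 993 (10.5%, exact 95% interval 8.64 to 12.5). It held 50 domains, stretches of called bins joined over gaps of up to 2 bins, of which 20 were at least 10 kb wide. The longest of these, from 80744001 to 80838000, spanned 94 kb. The window before it, from 79000001 to 80000000, ranked next but one, with 58.8% in replicate 2 and 10.5% in replicate 1. Here 6 domains of 50 kb or more were counted. Together these windows form a stretch in which many domains of moderate width lie close to each other.

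Second came chromosome 5 from 36000001 to 37000000, with 60.9% in replicate 2 and 8.56% in replicate 1, and a domain of 153 kb from 36563001 to 36716000. Chromosome 8 from 125000001 to 126000000 had 58.7% and 15.7%, with a domain of 189 kb from 125047001 to 125236000. Chromosome 7 from 112000001 to 113000000 had 57.5% and 22.4%. Its domain of 216 kb, from 112467001 to 112683000, held a mean of 45.9 reads per bin in replicate 2 and 22.5 in replicate 1. On chromosome 2, the windows from 27000001, 30000001 and 167000001 had 57.2%, 56.5% and 55.6% in replicate 2 and 12.4%, 7.97% and 10.02% in replicate 1. Their longest domains spanned 217, 122 and 54 kb. Chromosome 12 from 111000001 to 112000000 had 54.4% and 9.71%, and chromosome 15 from 76000001 to 77000000 had 53.6% and 10.3%. The longest domain touching the window on chromosome 15 spanned 230 kb, from 76904001 to 77134000, and lay mostly in the next window. The 10 windows thus differed in make-up, with longest domains from 54 to 230 kb, while all had shares above 7% in replicate 1.

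Each of the 5 windows with the highest share in replicate 1 was touched by a domain of 97 kb or more in replicate 2. Chromosome 16 from 24000001 to 25000000 had 29.2% in replicate 1 (exact 95% interval 26.3 to 32.1) and 51.5% in replicate 2. A single domain of 299 kb, from 24306001 to 24605000, held 35.5 reads per bin in replicate 2 and 25.5 in replicate 1, which called up to 84 kb of it without a larger gap. Chromosome 7 from 112000001, described above, was second in replicate 1. Chromosome 7 from 67000001 to 68000000 followed with 18.7% in replicate 1 and 42.2% in replicate 2, and its domain of 246 kb crossed the end of the window. Chromosome 5 from 143000001 to 144000000 had 17.4% and 53.3%. Chromosome 4 from 154000001 to 155000000 had 16.9% and 45.8%, with a domain of 107 kb at 64.7 reads per bin in replicate 2 and 25.02 in replicate 1. By the same limit of 20%, only the first pair of these windows, on chromosomes 16 and 7, would be dense in replicate 1.

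At the other end, 5 dense windows had almost no called bin in replicate 1. Chromosome 11 from 67000001 to 68000000 had 202 of 955 bins called in replicate 2 (21.2%) and 1 of 994 in replicate 1 (0.101%, exact 95% interval 0.00255 to 0.559). Chromosome 3 from 28000001 to 29000000 had 20.1% and 0.103%, and chromosome 5 from 131000001 to 132000000 had 22.2% and 0.206%. In these 3 windows no domain reached 50 kb, and the longest spanned 25, 21 and 34 kb. Chromosome 6 from 101000001 to 102000000 had 24.1% and 0.216%, and chromosome 8 from 128000001 to 129000000 had 26.2% and 0.306%. The window on chromosome 6 was unlike most others: it held 6 domains, and 1 of them, from 101134001 to 101344000, spanned 210 kb. That domain held 22.2 reads per bin in replicate 2 and 9.72 in replicate 1, below the count of 20 at which a bin was called. In all 5 windows the bins called in replicate 2 still held more reads of replicate 1 than the rest, by factors from 1.16 to 1.47. Their levels in replicate 1 lay between 1.004 and 1.13, close to the library median.

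Bins with reads of replicate 1 were also grouped into classes by their count in replicate 2, the library that chose the windows. Bins empty in replicate 1 were left out. Within a class, the mean count of replicate 2 itself was higher in dense windows in every class above 0 reads, for example 8.11 against 7.74 reads at 6 to 11, so counts were not fully matched. Among bins with 12 to 19 reads in replicate 2, the mean in replicate 1 was 9.78 reads in dense windows (82530 bins) and 10.3 in other eligible windows (56430 bins). For 20 to 39 reads the means were 14.2 and 15.5, and for 40 or more they were 22.7 and 22.8. For bins with no read in replicate 2 they were 4.72 and 5.55. The mean was lower in dense windows in all 7 classes of count, while the level of the whole window was higher there.

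The same was seen in the spaces between domains. Only bins with reads of replicate 1 were averaged here, and what empty bins would change was not tested. Those with no call of replicate 2 within 10 kb held a mean of 6.21 reads of replicate 1 in dense windows (119917 bins). In other eligible windows the mean was 6.70 (639221 bins). In replicate 2, over the same bins, the order was the opposite, with means of 3.599 and 2.92. Dense windows were lower in replicate 1 on 18 of 19 chromosomes, the exception being chromosome 13 with 6.94 against 6.83, and higher in replicate 2 on all 19. Replicate 2 was used to choose both windows and bins, so its difference is no independent measurement. The lower spaces in replicate 1 stood at 0.927 times the value elsewhere.

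Dense windows lay in clusters. Of the 566, 380 (67.1%) had a dense window directly beside them, and 138 (24.4%) had one on both sides. Of the 1125 other eligible windows, 416 (37.0%) had a dense window beside them and 63 (5.6%) had one on both sides. Of the 796 distinct eligible windows beside a dense window, 380 were dense. For distances, each dense window was paired with the eligible windows on either side, so a window could enter more than 1 pair. Of 997 such pairs at 1 Mb, 52.0% led to a dense window, against 33.5% of all eligible windows. This share was 46.6% at 2 Mb, 43.1% at 3 Mb and 40.2% at 4 Mb, lay between 36.3% and 40.2% from 5 to 10 Mb, and was 33.8% at 20 Mb. Some domains cross window borders, so adjacent windows are not independent. Of the 1132 places beside a dense window, 518 (45.8%) were dense, 479 (42.3%) were eligible but not dense, and 130 (11.5%) had too few bins with reads, against 29.9% of all windows. With the minimum of 700 bins set on replicate 1 instead, 67.7% of 579 dense windows and 28.8% of the other eligible windows had a dense neighbour. With 900 bins needed, 62.3% and 50.1% had one.

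In replicate 1, windows around dense windows included dense ones, so its mean shares by distance partly restate the clustering. The mean share was 5.52% in dense windows. Over the pairs described above it was 3.68% at 1 Mb, 3.52% at 2 Mb and 3.45% at 3 Mb, against 2.97% over all eligible windows. At 10 Mb it was 2.92%. Of the 566 windows with the highest share in replicate 1, 320 (56.5%) lay beside another of that list, against 479 of the 1125 windows outside the list (42.6%), and the longest run of such windows was 7. Eligible windows that were not dense had a median share of 1.32% in replicate 1 when they lay beside a dense window (416 windows) and 1.10% otherwise (709 windows). Their median level in replicate 1 went the other way, at 1.08 beside a dense window and 1.11 otherwise. In replicate 2 the shares were 10.8% and 7.48%. The number of dense neighbours went with the share in replicate 2, at medians of 25.3%, 27.9% and 31.9% for 0, 1 and 2 neighbours. It did not go with the share in replicate 1, at 4.78%, 4.99% and 4.90%.

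**Figure D2:**
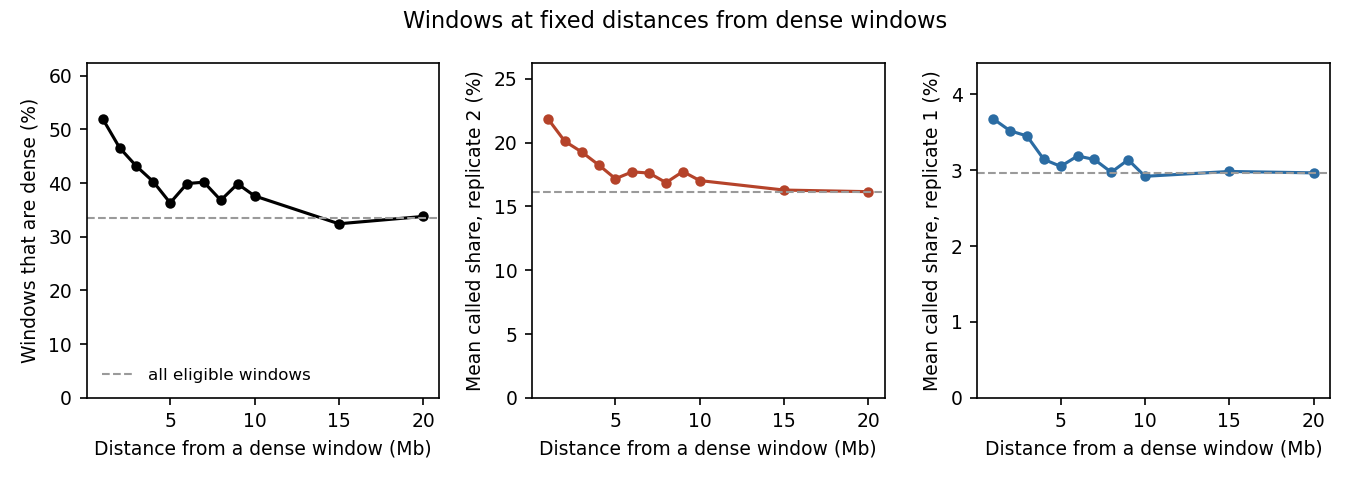
For windows at each distance in Mb from a dense window, the panels show the percent that are dense, the mean called share in replicate 2 and the mean called share in replicate 1, with the value over all eligible windows as a dashed line. A window is counted once for each dense window at that distance. The percent that are dense falls from 52.0% at 1 Mb to 33.8% at 20 Mb, and the mean share in replicate 1 from 3.68% to 2.96%.

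The dense windows fell into 307 runs of directly adjacent windows. Single windows made up 186 of these, 62 runs held 2 windows and 59 held 3 or more. Runs of 5 or more windows numbered 21 and held 129 dense windows (22.8%). The longest run spanned 10 Mb on chromosome 8, from 122000001 to 132000000. Its windows had shares from 22.5% to 58.7% in replicate 2 and from 0.306% to 15.7% in replicate 1. The window before it had 8.46% and 0.204%. Few reads fell in the window after it, so its 0% in both libraries does not show how the run ends. The peak in both libraries was the window from 125000001, and one of the 5 lowest dense windows of replicate 1, from 128000001, lay in the same run.

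Next came 9 windows on chromosome 15 from 75000001 to 84000000, with shares from 23.9% to 53.6% in replicate 2 and 1.83% to 15.6% in replicate 1. The peaks differed here: replicate 2 was highest in the window from 76000001 and replicate 1 in the window from 77000001. On chromosome 4, 8 windows from 131000001 to 139000000 had 27.9% to 47.8% and 1.84% to 12.4%. On chromosome 2, 7 windows from 29000001 to 36000000 had 25.4% to 56.5% and 1.42% to 9.79%, and the window after the run fell to 4.65% and 0.131%. The 7 windows on chromosome 17 from 23000001 to 30000000 were the most even of the 5 longest runs. From the second window on they held between 42.1% and 44.05% in replicate 2 and between 5.53% and 8.81% in replicate 1, while the window before the run had 1.10% and 0.159%.

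**Figure D3:**
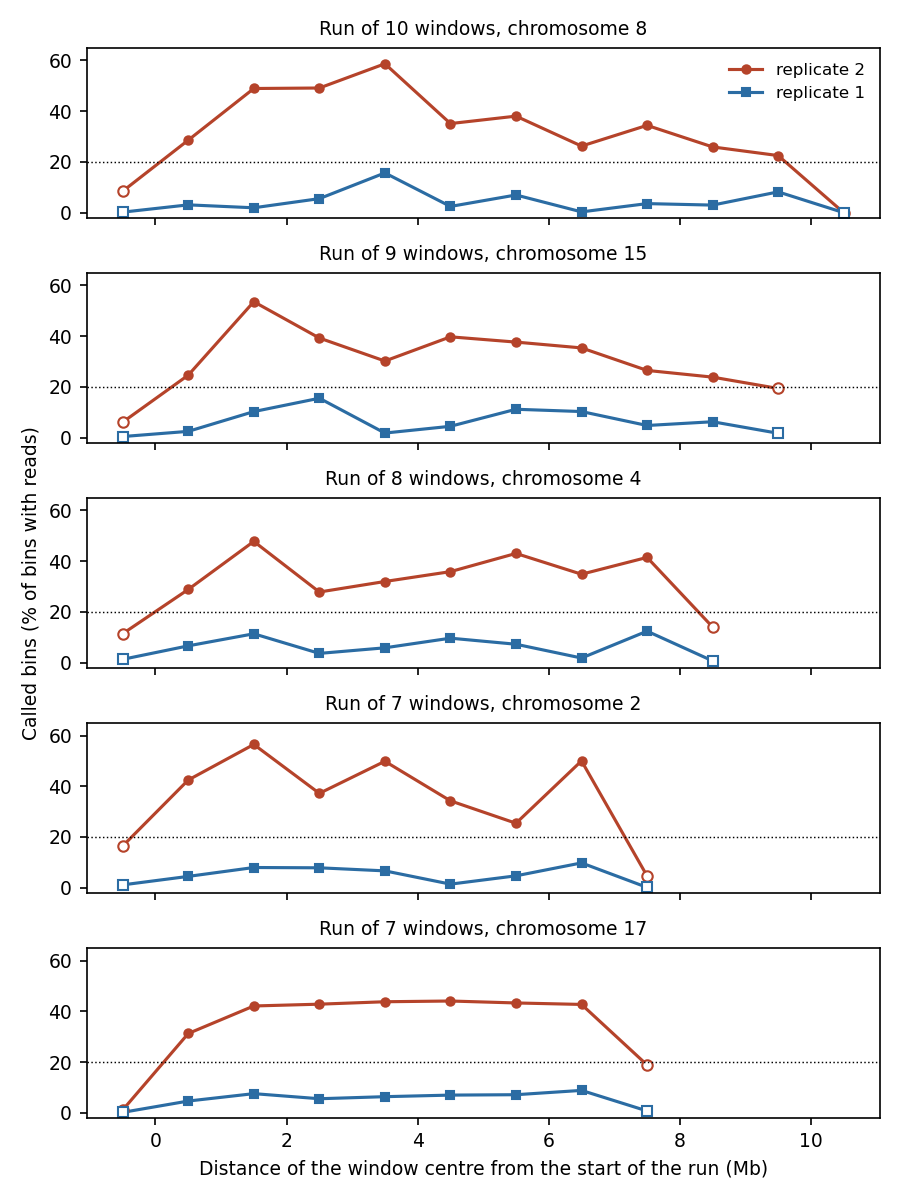
Called share of each window, in percent of bins with reads, along the 5 longest runs of dense windows, with replicate 2 in red, replicate 1 in blue and the window on either side of the run as open symbols. The horizontal axis is the distance in Mb of the window centre from the start of the run and the dotted line marks 20%, which all filled red points reach and all open ones miss.

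Dense windows were unevenly spread over the chromosomes. They made up 52.0% of eligible windows on chromosome 11 (53 of 102) and 51.7% on chromosome 17 (31 of 60), followed by 46.1% on chromosome 7 (41 of 89), 42.7% on chromosome 15 and 41.8% on chromosome 8. The lowest shares were on chromosome 14, with 18.8% (13 of 69), and chromosome 13, with 22.1% (19 of 86). On chromosome 14 no run exceeded 2 windows. The median share of dense windows in replicate 1 varied much less, from 4.01% on chromosome 5 to 6.58% on chromosome 19. Over all windows of a chromosome, mean reads per bin with reads of replicate 1, at least 10 kb from calls, ran from 5.53 on chromosome 7 to 6.68 on chromosome 16. What copy number adds to these values was not tested. Chromosome X was outside the rule, and none of its 22 windows with 700 bins was dense, at a highest share of 9.41% in replicate 2 and 1.08% in replicate 1.

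**Figure D4:**
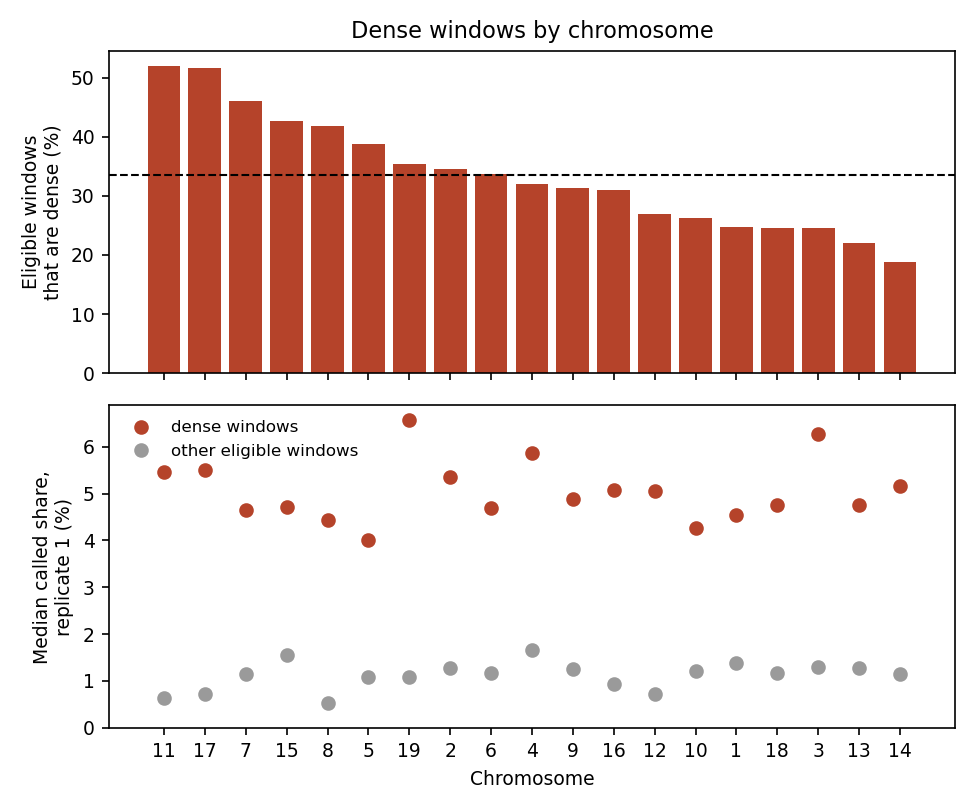
The upper panel gives the percent of eligible windows that are dense on each autosome, ordered from chromosome 11 (52.0%) to chromosome 14 (18.8%), with the value over all chromosomes (33.5%) as a dashed line. The lower panel gives the median called share of replicate 1 in dense (red) and other eligible (grey) windows, and the red point is above the grey one on all 19 chromosomes.

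Along the chromosomes, dense windows were more frequent near the distal end than near the centromeric end, where mouse autosomes begin. In the last 10 Mb, 69 of 148 eligible windows (46.6%) were dense, against 32 of 118 (27.1%) in the first 10 Mb with reads and 465 of 1425 (32.6%) between. Replicate 1 did not follow this order in all eligible windows, with median shares of 1.98% in the last 10 Mb, 1.51% in the first and 2.23% between. Within the dense windows its medians were 4.73%, 5.10% and 4.95%.

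Dense windows held more domains, and wider ones, than other windows. In replicate 2, which chose them, they held 48.3 domains per Mb against 25.4 elsewhere, and 8.73 against 2.25 of at least 10 kb. In replicate 1 the numbers were 13.6 against 5.36 domains per Mb, and 1.76 against 0.470 of at least 10 kb. The median width of domains of at least 10 kb was 15 kb both in dense and in other windows in replicate 1, and 19 and 16 kb in replicate 2. The mean count per bin inside them in replicate 1 was 26.3 and 25.8 reads. These widths and counts cover only domains of at least 10 kb, built from called bins. They cannot show whether domains were alike in width or height. Over all domains of replicate 1 the widths differed, with a median of 2 kb in dense windows and 1 kb in other windows. Domains of 1 bin made up 46.6% in dense windows and 58.6% in other windows. Domains of 50 kb or more numbered 0.0795 per Mb in dense windows and 0.00622 in other windows.

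Very wide domains lay mostly in dense windows. Of 55 domains of 50 kb or more in replicate 1, 45 (81.8%, exact 95% interval 69.1 to 90.9) had their centre in a dense window, where 58.8% of the called bins and 25.2% of the bins with reads lay. In replicate 2, where dense windows held 61.4% of the called bins, 633 of 819 (77.3%) did so, and 144 of 170 domains of 100 kb or more (84.7%). Domains of replicate 2 are made of the called bins that chose the windows, so these values partly restate the choice. The longest spanned 333 kb in replicate 2, against 99 kb for replicate 1. Such domains were not needed for a window to be dense, since 139 of the 566 (24.6%) were touched by none of 50 kb or more. The longest domain touching a dense window had a median width of 69 kb and a minimum of 20 kb. Domains of 50 kb or more held 29.8% of the called bins of replicate 2 in dense windows and 7.94% of those of replicate 1. In other eligible windows they held 11.7% and 1.92%. The shares in dense windows depend on how calls are joined: with no gap joined they were 5.71% and 0.232%, and with gaps of 5 bins 54.1% and 20.9%.

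Domains of replicate 2 of 20 kb or more in dense windows were often higher on the same side in both libraries. For each of the 2386 domains, the reads left and right of the middle were compared in each library. The higher end was on the same side in both libraries in 1976 of 2364 domains without ties (83.6%, exact 95% interval 82.03 to 85.1), and in 782 of 936 elsewhere (83.5%, 81.01 to 85.9). Each domain was then turned so that its higher end in replicate 2 came first, and divided into 10 equal parts (2381 domains in dense windows and 941 in others). In replicate 1, which did not set the direction, the mean level in dense windows was 2.03 in part 1, reached 2.48 in part 2 and fell with each part to 1.44 in part 10. The 5 kb just outside stood at 1.13 before the higher end and 1.16 after the lower end. In other windows the profile of replicate 1 had the same form, at 2.78 in part 2 and 1.62 in part 10. The decline inside domains was thus seen in dense and in other windows, with lower values of replicate 1 in the dense windows.

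**Figure D5:**
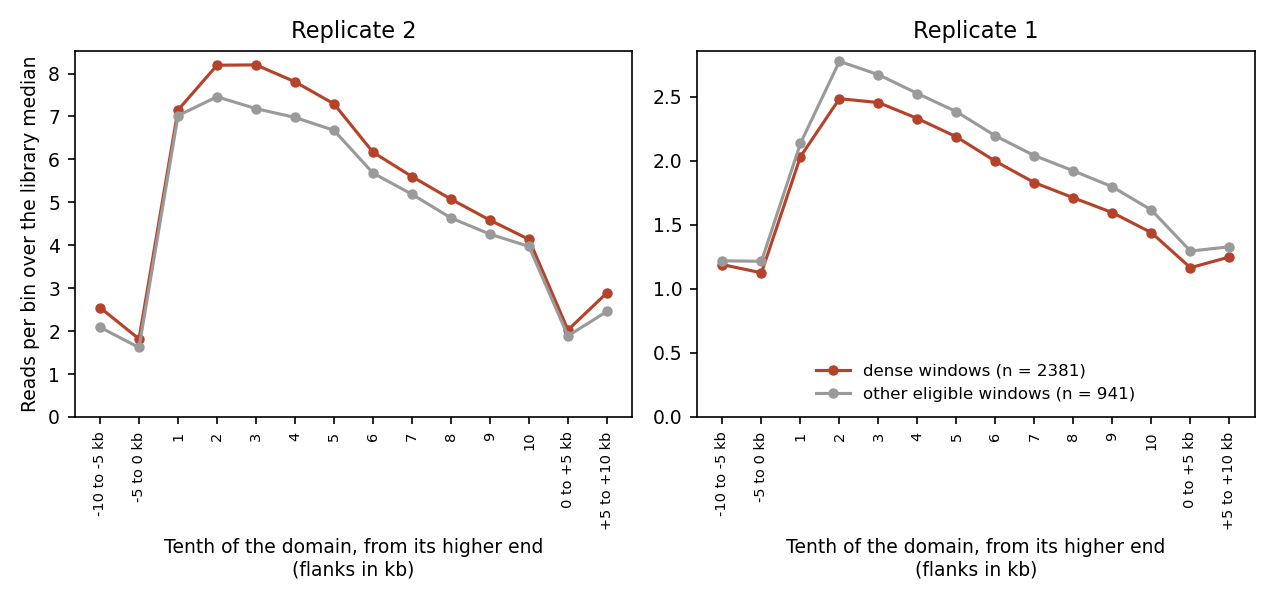
Mean reads per bin over the library median in 10 equal parts of domains of 20 kb or more, turned so that the higher end in replicate 2 comes first, with flanks of 5 kb steps on both sides. Lines are domains centred in dense (red, n = 2381) and other eligible windows (grey, n = 941). Both libraries peak in part 2 or 3 and decline toward part 10, and in replicate 1 the red line lies below the grey one.

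Neighbouring domains in dense windows occurred in every arrangement. Among 853 pairs of such domains of replicate 2 separated by at most 50 kb, directions taken from replicate 1 were the same in 50.6% (exact 95% interval 47.2 to 54.1). Higher ends faced each other in 22.2% (19.4 to 25.1) and pointed away from each other in 27.2% (24.2 to 30.3). In other eligible windows, 153 pairs gave 51.6%, 20.3% and 28.1%.

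Measures of the reads themselves also differed between dense and other windows. Bins with reads numbered 974 in replicate 1 and 950 in replicate 2 at the median of the dense windows, against 944 and 854 in the other eligible windows. Distinct positions of reads with 2 placements numbered 281 and 367.5 per window in replicates 1 and 2, against 235 and 196. Repeated starts made up 15.7% and 6.10% of reads, against 15.03% and 4.84%. Reads on the plus strand made up 50.02% and 49.96%, against 49.99% and 49.96%. The part of these measures in the results was not tested, but with bins rich in reads of 2 placements left out, 562 windows were dense and replicate 1 called 5.52% of their bins.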

How the data were processed

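The authors deposited 1 list of signed read positions per library, with no score attached. Bowtie aligned the reads to build mm8 with -e 70 -k 2 -m 2 -n 2 -l 36 and the option for best alignments, per the file headers. Tool and build also stand in the submitters' processing notes, and the tool's version was not given in these sources. The sign gives the strand. Positions were read as leftmost bases counted from 0, since the lowest was 3000000 on both strands in replicate 1, and printed coordinates count from 1.

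Reads with 1 placement (20110155 and 13850845) were reduced to distinct positions and counted per 1 kb bin. Replicate numbers follow accession order. Of the distinct autosomal positions of replicate 2, 0.729% were also in replicate 1. The windows and lists were chosen with earlier results of these data known. Named windows are the 10 densest, the 5 longest runs, the 5 highest and 5 lowest in replicate 1, and 3 on each side of the limit. Counting was tested on simulated data. Analyses used Python 3.11.15, NumPy 2.4.6, SciPy 1.17.1, pandas 2.3.3 and matplotlib 3.10.9. No gene coordinates of mm8 were used.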

Additional observations from a re-analysis of the deposited data

Results flagged for a closer look

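Reads with 2 placements were not used in the counts above, and their highest bins in dense windows are given as values. No control library was analysed here, so there is no background to set them against. In replicate 1 the highest bin in a dense window lay on chromosome 11 from 3059001 to 3060000, with 218 distinct positions of such reads, against 155 in replicate 2, and with 173 and 127 reads of 1 placement. In replicate 2 it lay on chromosome 17 from 34566001 to 34567000, with 238 distinct positions, against 23 in replicate 1, and with 1 read of 1 placement in each library.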

How the results depend on the processing

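Of 68 recomputed values, 42 stayed within their limits and 26 did not. A change of direction was looked for only in the spaces between domains, where none was seen. For levels, domain shares and these spaces, the limit was the standard deviation between the libraries. The libraries differed, so this limit was wide and the 42 are no measure of stability there. Domain shares of 0.232% and 20.9% in replicate 1 counted as within, against 7.94%. Among the 42, 2 could not change, since replicate 2 alone chose the windows and leaving out replicate 1 does not touch them. The number of dense windows was 566, and it was 834 and 295 with calls at 10 and 15 reads, 798 and 372 with member shares of 15% and 25% and 257 with windows of 2 Mb. The rule gave 2 windows on replicate 1 alone and 566 on replicate 2 alone, and 0% to 67.1% of them had a dense neighbour when either library was left out. That share was 80.6% and 53.9% with calls at 10 and 15 reads, 78.9% and 61.6% with member shares of 15% and 25%, 62.3% with 900 bins needed, 62.6% with windows of 2 Mb and 73.0% with repeated starts kept. In the same order, 51.2%, 19.8%, 48.0%, 24.3%, 50.1%, 32.9% and 39.8% of other eligible windows had a dense neighbour, against 37.0% in the main setting. Both shares move with the number of dense windows. The share of bins called in replicate 1 (5.53%) was 22.5%, 10.1% and 2.96% with calls at 12, 16 and 25 reads, 22.5% with calls matched to the share of replicate 2, 2.90% after thinning, 8.68% with repeated starts, and 4.84% and 6.32% with member shares of 15% and 25%. Over all eligible windows it was 17.4%, 6.25% and 1.53% with calls at 12, 16 and 25 reads, 1.52% after thinning and 5.41% with repeated starts. The ratio to all windows, 1.85 in the main setting, was 1.29, 1.61 and 1.93 with calls at 12, 16 and 25 reads. After thinning it was 1.91, with repeated starts 1.60, and with member shares of 15% and 25% it was 1.62 and 2.11. Overlap with the highest windows of replicate 1 (73.0%) was 61.3% with calls at 12 reads and with matched calls, which is the same count, and 78.7% and 61.8% with member shares of 15% and 25%. Dense windows made up 47.2% and 22.0% of eligible windows at these member shares, against 33.5% in the main setting. Domains of 50 kb or more held 5.71% of called bins with no gap joined and 54.1% with gaps of 5 bins. The cause was not tested. The lower background of replicate 1 between domains, over bins with reads of replicate 1, held at 5 and 20 kb from calls (0.947 and 0.898 times). For the shares of 25 named windows, 200 further values were recomputed, and only 28 stayed within their limits. Counting the minimum of 700 bins in replicate 1 was added after seeing the data. Genes were not counted, since no mm8 coordinates were used. No paired analysis was possible because there is 1 group.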
